A study of Mus musculus with 9 samples.

Results

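The genes described here are Spp1, Igf1, Gpnmb, Cst7, Itgax, Acp5, Gm1673, Lgals3 and Plbd1, which code for secreted, surface or lysosomal proteins and most of which are commonly listed among the genes that microglia raise around dying neurons. They were chosen by symbol, not by a threshold in these data, but with earlier results of these data known. They are 9 of the 27998 genes in the deposited tables. All 9 had at least 1 unique molecular identifier (UMI, a count of 1 captured RNA molecule) in the cells kept, where 13095 genes did. The genes were measured by single-cell RNA sequencing of the 3' ends of transcripts in live CD45+ CD11b+ immune cells, sorted from the retina of female Arr1-/- mice. These mice lack arrestin 1, so that light causes their rods to degenerate, and all had been bred and kept in the dark. The day 0 group stayed in darkness, and the day 7 and day 20 groups were under constant room lighting for 7 and 20 days. Each group had 3 libraries, and day 0 is a dark-kept Arr1-/- control, since no wild type mouse was sequenced in these libraries. The sample titles give the times in hours but the treatment labels give days, and the days are used here. The labels do not say whether the 3 libraries of a group came from separate animals, so p-values measure the spread between libraries, which may be technical.

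Microglia are the resident macrophages of the retina. When neurons die they lower genes of their resting state and raise genes for lipid handling, phagocytosis, lysosomal digestion and secretion, a shift often called the disease-associated state. Osteopontin (Spp1) and insulin-like growth factor (Igf1) are secreted ligands of that state, galectin-3 (Lgals3) is a lectin that is released and binds glycans, and Gpnmb and Itgax (CD11c) lie at the surface. Cst7, Acp5 and Plbd1 act in lysosomes or secretory granules. Macrophages that derive from blood monocytes can express many of the same genes, so none of them marks a lineage by itself.

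Before any comparison, the libraries shared cell barcodes to an extent that mattered for these genes. The 5022 barcode entries of the 9 libraries held only 1365 different barcodes, and 612 of these occurred in more than 1 library. Each barcode was therefore kept only in the library where its UMI total was highest (0 ties), which left 48.3% of all UMIs. Of the 851 cells that then passed quality control, 740 had more UMIs of 20 myeloid genes than of rod, other retinal, lens, pigment epithelium, vessel and lymphocyte genes together and were retained. They numbered 257 at day 0, 284 at day 7 and 199 at day 20, with 20443 to 277725 UMIs per library. Only 26 of the 851 cells lay within 2 times of that cut. The 20 myeloid genes summed to between 54453 and 108164 UMIs for every 1000000 UMIs of a library (CPM), while 7 neutrophil genes stayed at or below 244.6 CPM. Day 7 replicate 3 (17 cells) and day 20 replicate 3 (32 cells) were much thinner than the others.

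All 9 genes are annotated as protein coding (GENCODE M21, GRCm38). Spp1 spans chr5:104435118-104441050 on the plus strand and Gm1673 lies on the same chromosome at chr5:33983433-33985013. Gpnmb is at chr6:49036546-49070929 and Plbd1 at chr6:136612070-136661928 on the minus strand. Igf1 is at chr10:87858265-87937042, Acp5 at chr9:22126727-22135711 on the minus strand, Lgals3 at chr14:47367751-47386160, Cst7 at chr2:150570415-150578944 and Itgax at chr7:128129547-128150657. The bases just before the transcription start are shown for 4 genes whose level was higher at day 7 than at day 0 in all 3 libraries and for which at least 240 bases held no annotated exon. The sequences are from RefSeq (GRCm38.p6), 5' to 3' on the gene's strand, with motif matches in capitals.
Spp1, chr5:104434861-104435110, plus strand: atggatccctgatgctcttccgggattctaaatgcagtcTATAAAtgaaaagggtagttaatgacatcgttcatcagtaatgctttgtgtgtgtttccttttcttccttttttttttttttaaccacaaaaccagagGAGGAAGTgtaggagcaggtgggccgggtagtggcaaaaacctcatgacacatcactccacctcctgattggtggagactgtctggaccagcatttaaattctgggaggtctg
Acp5, chr9:22130609-22130848, minus strand, before the most internal of its 3 RefSeq starts: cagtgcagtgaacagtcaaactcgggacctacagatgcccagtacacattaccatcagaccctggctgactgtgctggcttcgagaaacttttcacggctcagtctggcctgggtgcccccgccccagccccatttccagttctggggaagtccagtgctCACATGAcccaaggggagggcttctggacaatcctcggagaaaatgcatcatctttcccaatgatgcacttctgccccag
Gpnmb, chr6:49036268-49036517, plus strand: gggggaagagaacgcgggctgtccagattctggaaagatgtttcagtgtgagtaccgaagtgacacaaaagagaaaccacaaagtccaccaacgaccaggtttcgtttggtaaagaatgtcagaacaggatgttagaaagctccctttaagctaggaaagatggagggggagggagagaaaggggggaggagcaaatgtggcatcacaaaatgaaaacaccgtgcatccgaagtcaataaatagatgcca
Gm1673, chr5:33983183-33983432, plus strand: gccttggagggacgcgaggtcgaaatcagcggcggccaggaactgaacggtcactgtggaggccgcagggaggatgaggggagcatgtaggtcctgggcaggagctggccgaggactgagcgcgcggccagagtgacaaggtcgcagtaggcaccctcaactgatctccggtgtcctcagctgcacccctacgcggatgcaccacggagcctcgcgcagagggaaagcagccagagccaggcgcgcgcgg
The motifs were searched on both strands in the 250 bases before each of 12 RefSeq starts of the 9 genes. In Spp1 the capitals are TATAAA, the TATA box, and GAGGAAGT, a motif bound by the myeloid factor PU.1, which started 211 and 113 bases before the start. In Acp5 they are CACATGA, the reverse complement of the M-box TCATGTG bound by MITF, 90 bases before the start. The AP-1 motif TGANTCA was in the windows of Igf1 and Itgax, and CACGTG, the E-box core bound by MITF and its relatives, was in 0 of the 12. These are descriptions of letters: of all 32851 RefSeq promoters, 12.4% held TATAAA, 2.44% GAGGAAGT, 3.25% TCATGTG, 6.75% TGANTCA and 6.02% CACGTG. Transcripts of the factors themselves were few in the retained cells, with 15 UMIs of Mitf, 22 of Tfeb, 57 of Tfe3 and 0 of Tfec.

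The first question was which of the genes differed between 7 days of light and darkness. Igf1, Acp5, Gm1673, Plbd1 and Lgals3 were higher at day 7, Spp1 and Gpnmb had higher values in each of the 3 libraries but did not pass or did not enter the test, and Cst7 and Itgax overlapped between the groups. The tests compared UMIs summed over the cells of each library by edgeR's quasi-likelihood test with Benjamini-Hochberg adjustment over 1372 genes, and 7 of the 9 genes passed its filter on low counts. All of these but Cst7 could pass only through libraries in which they were high, so their number is no evidence on its own. Of all genes tested, 10.3% were called higher and 15.5% lower, and 12.6% had all 3 day 7 libraries above all 3 of day 0.

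Igf1, a secreted growth factor, had 0 UMIs in each of the 3 day 0 libraries. At day 7 it had 51, 24 and 3 UMIs in replicates 1, 2 and 3, which is 184, 239 and 147 CPM. The groups did not overlap, and the pooled level was at least 29.5-fold higher at day 7 than the 3 counts that 0 UMIs at day 0 allow. The rise passed the test (edgeR adjusted p = 8.2e-05), also without any 1 of the 9 libraries (9 of 9 fits). Those fits share most of their libraries, and Igf1 could enter them only through libraries in which it was high. The number of fits is therefore no evidence on its own.

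Acp5 codes for tartrate-resistant acid phosphatase, an enzyme of lysosomes and of osteoclasts. It too had 0 UMIs in all day 0 libraries, against 43, 10 and 4 UMIs at day 7 (155, 99.4 and 196 CPM). Its pooled level was at least 21.6-fold higher (edgeR adjusted p = 0.000464). Plbd1, a phospholipase B-like protein of lysosomes and granules, also had 43, 10 and 4 UMIs at day 7, and 0, 1 and 0 at day 0. The pooled ratio was 64.7, with a 95% counting interval from 11.2 to 2599 because of the single day 0 UMI (edgeR adjusted p = 0.000768).

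Gm1673, which codes for a small secreted peptide, had 1, 0 and 1 UMIs at day 0 and 28, 29 and 4 at day 7. The day 7 levels of 101, 288 and 196 CPM all lay above the highest day 0 level of 10.6 CPM. The ratio was 34.6 (95% counting interval 9.18 to 292, edgeR adjusted p = 0.000399). Lgals3 was already detected in darkness, with 10, 4 and 8 UMIs (61.2, 20.5 and 85.2 CPM). It rose to 80, 61 and 2 UMIs (288, 607 and 97.8 CPM), a ratio of 7.38 (interval 4.69 to 12.1) and a log2 change of 2.93 ± 0.56 (SE, edgeR adjusted p = 0.00149). The lowest day 7 level, just above the highest of day 0, rested on those 2 UMIs.

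Spp1 codes for osteopontin, a secreted ligand of integrins and CD44. It had 1, 0 and 0 UMIs at day 0 and 190, 48 and 3 at day 7, or 684, 477 and 147 CPM. The libraries did not overlap and the pooled ratio was 273 (95% counting interval 48.6 to 10846), but the test did not pass (edgeR adjusted p = 0.0563). That p depended on 1 cell of another group, since all 3 days share one estimate of the spread. Without the day 20 cell that held the most Spp1, the edgeR adjusted p was 4.4e-06, with 10.2% of genes called higher. That fit was chosen after the data had been seen. It took out the highest value of the gene tested, so its p is no independent support. DESeq2 gave an adjusted p of 0.00052 with that cell included.

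Gpnmb, a transmembrane glycoprotein of phagocytes, had 6, 1 and 0 UMIs at day 0 and 125, 31 and 2 at day 7 (450, 308 and 97.8 CPM). The pooled ratio was 25.6 (interval 12.1 to 64.7). It did not pass the low-count filter, with 2 UMIs in the thin replicate 3. Of the fits that left out 1 library, 8 tested it and 8 called it (edgeR adjusted p between 5.3e-06 and 0.00252). It could enter those only through libraries in which it was high, so their number is no evidence on its own. The fit without day 7 replicate 1, which held 125 of its 158 day 7 UMIs, did not test it.

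Cst7 and Itgax did not follow the others. Cst7 codes for cystatin F, an inhibitor of lysosomal cathepsins, and had 22, 7 and 6 UMIs at day 0, 27, 8 and 0 at day 7 and 7, 23 and 4 at day 20. Its log2 change at day 7 was 0.18 ± 0.54 (SE, edgeR adjusted p = 0.840), and the pooled ratio of 1.13 had an interval from 0.690 to 1.87. A single day 0 cell held 14 of the 35 Cst7 UMIs of that day. Itgax, the integrin chain CD11c, was at the edge of detection, with 9 UMIs at day 0, 10 at day 7 and 6 at day 20. Its ratio of 1.26 between day 7 and day 0 had an interval from 0.460 to 3.51, so a change of up to that size was not detectable at this depth.

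**Figure D1:**
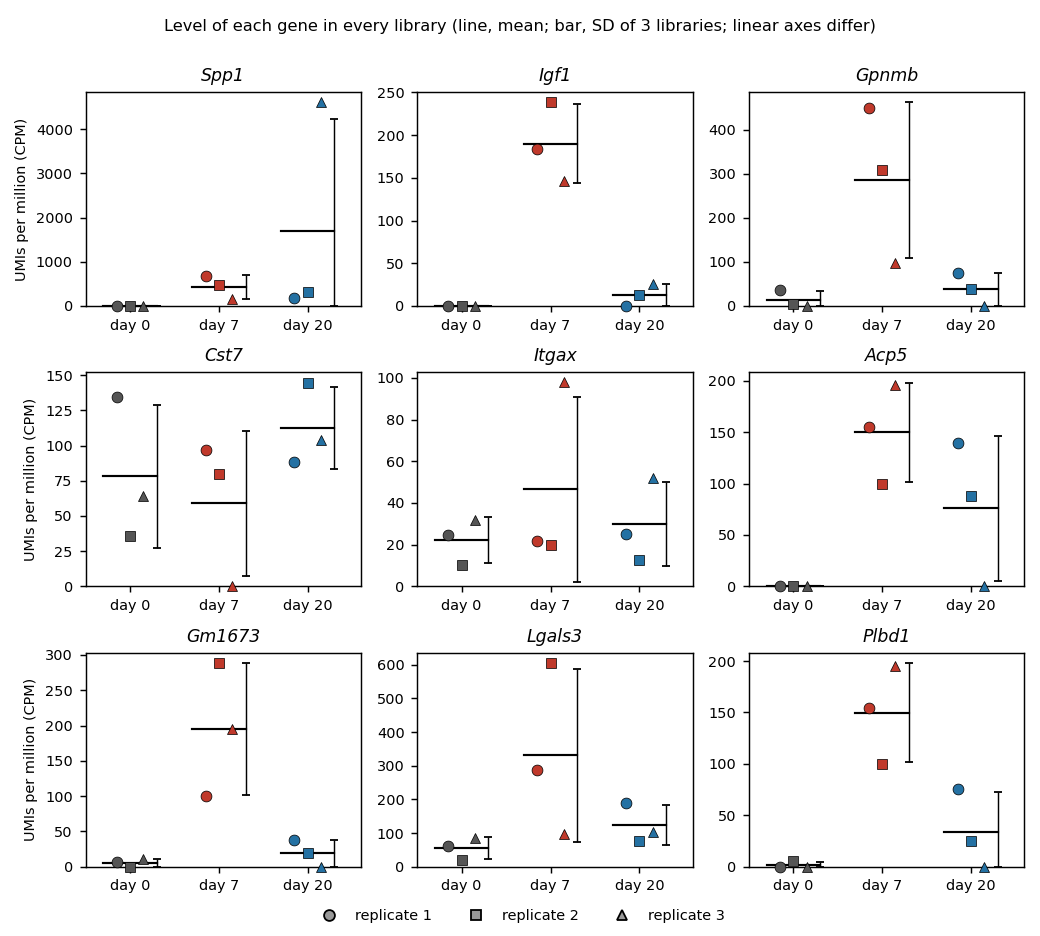
Each panel plots 1 gene in CPM (linear axis, scaled per panel) against the day of light; each point is 1 library, the line is the mean and the bar the SD of 3 libraries, cut at 0. Igf1, Gm1673, Gpnmb and Plbd1 were highest in the 3 day 7 libraries, Cst7 and Itgax overlapped on all days, and day 20 replicate 3 stood alone for Spp1 at 4612.5 CPM.

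The shared barcodes moved with these values. With every barcode entry kept in every library, Spp1 had 286 UMIs at day 0 in place of 1 (400.1 ± 84.5 CPM, SD, n = 3), against 731 ± 66.6 CPM at day 7, and its log2 change was 0.98 ± 0.33 (SE, edgeR adjusted p = 0.131). Igf1, Acp5, Plbd1 and Lgals3 were still called higher at day 7 in that fit, but by less. Their log2 changes were 2.26, 2.62, 1.93 and 1.35, in place of 7.71, 7.22, 5.57 and 2.93. At day 0, Igf1, Acp5 and Plbd1 then had 22, 12 and 19 UMIs, in place of 0, 0 and 1. Gpnmb at 2.14 did not pass (edgeR adjusted p = 0.117) and Gm1673 did not enter the test. The summed level of 12 monocyte and macrophage genes moved too. It was 56.4 to 128 CPM at day 0, 815 to 1159 CPM at day 7 and 353 to 573 CPM at day 20. Of the 12, 6 had a UMI at day 0, 10 at day 7 and 7 at day 20. Lyve1 went the other way, with UMIs at day 0 but 0 at days 7 and 20, and Ly6c2 had 0 at day 20. Only 2 of the 12, Ms4a7 and Vim, passed the filter on low counts. The part of this change in the result was not tested, and a larger share of some cells cannot be told apart from more RNA per cell in these sums.

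The next comparison set 20 days of light against darkness. Acp5 was the single gene of the 7 tested that was called higher than at day 0, when 1.09% of the 1372 genes were called higher and 1.46% lower. It had 11, 14 and 0 UMIs (139, 88.2 and 0 CPM), at least 13.7-fold above the day 0 floor (edgeR adjusted p = 0.0140), so replicate 3 overlapped with the dark libraries. The call was lost without day 7 replicate 1 (edgeR adjusted p = 0.0674) and with every barcode entry kept, where the log2 change was 1.93 in place of 6.44 (edgeR adjusted p = 0.295). DESeq2 gave Acp5 no adjusted p here, and the gene of the 9 that it called was Spp1 (DESeq2 adjusted p = 2.31e-05). Lgals3 had 15, 12 and 4 UMIs (190, 75.6 and 104 CPM) and a pooled ratio to day 0 of 2.31 (interval 1.29 to 4.18), which did not pass (log2 change 1.22 ± 0.63, SE, edgeR adjusted p = 0.379). Gpnmb had 6, 6 and 0 UMIs, Plbd1 6, 4 and 0, and Gm1673 3, 3 and 0. Their ratios to day 0 were 2.81, 16.4 and 4.91, with intervals from 1.02 to 8.42, 2.33 to 711 and 0.879 to 49.8, and all 3 overlapped with day 0. Cst7 had a ratio of 1.59 (interval 0.963 to 2.63) and Itgax one of 1.09 (interval 0.320 to 3.44). Igf1 had 3 UMIs in all at day 20, not above the floor of 3 counts.

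Directly against day 7, Igf1 and Gm1673 were lower at day 20. Igf1 had 0, 2 and 1 UMIs at day 20, below every day 7 library, and the level at day 7 was 18.0 times that at day 20 (interval 5.94 to 89.2, edgeR adjusted p = 0.00628). For Gm1673 the ratio was 7.04 (interval 3.06 to 19.9, edgeR adjusted p = 0.0277). In this comparison 0.875% of genes were called lower and 3.94% higher, and 5.17% had all day 20 libraries below all of day 7. Gpnmb and Plbd1 also had all 3 day 20 libraries below those of day 7, by ratios of 9.12 (interval 5.08 to 18.0) and 3.95 (interval 2.00 to 8.67). Gpnmb was called in 7 of the 8 fits without 1 library that tested it, which it could enter only through libraries in which it was high. The fit without day 7 replicate 1 did not test Gpnmb. Plbd1 was not called (edgeR adjusted p = 0.166). Acp5 differed least among the 5 genes called at day 7, with a ratio of 1.58 (interval 0.971 to 2.64, log2 change −0.77 ± 0.63, SE, edgeR adjusted p = 0.624). Without day 7 replicate 1, the library with the most UMIs, edgeR called 0 of the 6 genes tested and 14 of all 1568. At an unadjusted edgeR p under 0.05 there were 3 of the 6 and 194 of all genes. Igf1 then had an adjusted p of 0.136, and with every barcode entry kept one of 0.201. Gm1673 also lost its call without day 7 replicate 2 or day 20 replicate 2 (edgeR adjusted p = 0.355 and 0.139), and Gpnmb without the latter (0.140).

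**Figure D2:**
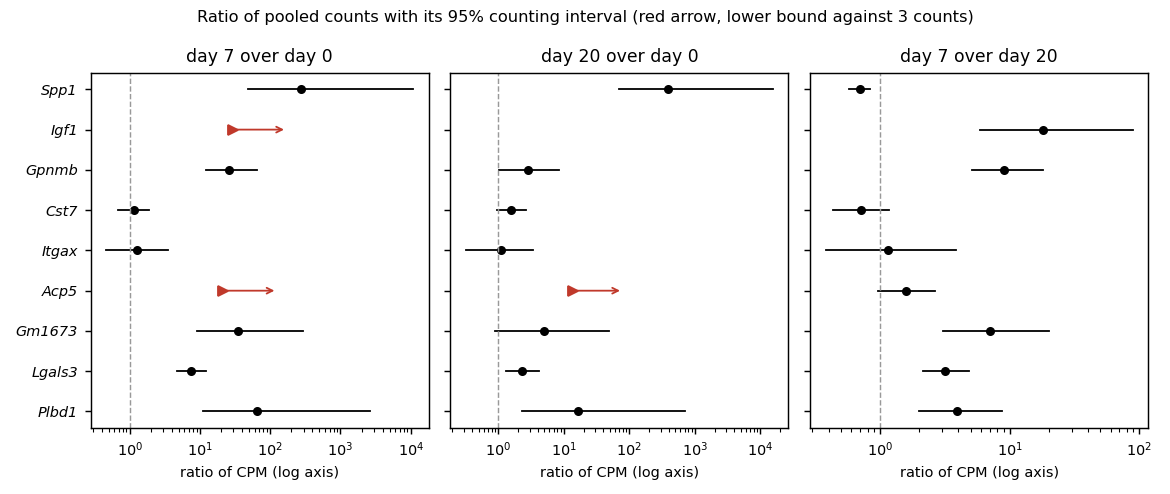
The horizontal log axis is the ratio of CPM between 2 days for UMIs pooled over 3 libraries; points are ratios, lines the 95% counting intervals, and red arrows start at the lower bound where the second day had 0 UMIs. Cst7 and Itgax straddle 1 in each panel, and Igf1 at 18.0 has the highest ratio of day 7 over day 20; Igf1 has no ratio of day 20 over day 0, since both were at or under 3 counts.

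Spp1 at day 20 was a matter of few cells. Its libraries had 14, 49 and 177 UMIs (177, 309 and 4612.5 CPM), all above day 0, with a pooled ratio of 393 (interval 69.9 to 15593) that did not pass the test (edgeR adjusted p = 0.103). Of the 177 UMIs in replicate 3, 162 were in a single cell. That cell had 2574 UMIs in all, 6.29% of them Spp1, and its barcode had 890 UMIs in the library with its next highest total. The cell held 370 UMIs of the myeloid genes, 87 of the resting-state microglial genes and 0 of MHC class II. It had 3 UMIs of Lgals3 and 2 of Itgax, but 0 of Igf1, Gpnmb, Cst7, Acp5, Gm1673 and Plbd1. Without that cell, replicate 3 stood at 419 CPM of Spp1. In a fit without that cell, chosen after the data had been seen, Spp1 was called higher than at day 0 (edgeR adjusted p = 0.000162, with 1.09% of genes called higher). Since the cell was taken out for its Spp1, that p is no independent support. The log2 change of Spp1 from day 7 to day 20 turned from 1.56 to −0.91, neither of which passed (edgeR adjusted p = 0.633 and 0.267). Leaving out both thin libraries, and that cell with them, gave −1.39, which passed (edgeR adjusted p = 0.0160, with 142 of 2368 genes called). In replicates 1 and 2 a single cell held 12 of 14 and 28 of 49 UMIs. The 5 cells richest in Spp1 held 88.8% of its UMIs at day 20 and 49.4% at day 7. At day 7 one cell of replicate 1 held 75 of 241 UMIs.

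The other genes were spread over more cells at day 7, where the top 5 cells held 26.9% of Igf1, 25.9% of Lgals3 and 34.8% of Gpnmb UMIs. Igf1 was detected in 45 of 284 cells with at most 7 UMIs in 1 cell, Lgals3 in 76 and Gpnmb in 65. These shares are set beside the 111 cells left out by the marker cut. By day, 74 of the 111 came from day 0, 22 from day 7 and 15 from day 20. Over all days, rod genes held the most UMIs of the 4 lists of other cells in 74 cells. How many of the day 7 and day 20 cells were rods is not given. They serve as a comparison, not as cells known to lack these genes. Among the 22 left-out cells at day 7 (median 622.5 UMIs), Igf1 was in 0, which allows a share of up to 13.6%. Spp1 was in 2, Gpnmb in 3 and Lgals3 in 4. The shares of retained cells with Igf1, Spp1, Gpnmb and Lgals3 were 15.8%, 23.9%, 22.9% and 26.8%. Plbd1 was in 2 of the 22 (9.09%), against 12.7% of the retained cells, so the shares were close. Acp5 and Gm1673 were in 1 each (4.55%), against 11.6% and 13.4%. Of those 22 cells, 36.4% also had at least 2 MHC class II UMIs, as did 20% of the 15 at day 20. At day 20, Spp1 was in 12.6% of the retained cells and in 2 of 15 left-out cells (13.3%). Gm1673 was in 3.02% and again 2 of 15, and Igf1 in 1.51% and 1 of 15 (6.67%). For Spp1, Gm1673 and Igf1 the day 20 share was thus not above that of the left-out cells, which were few. Cst7, Lgals3, Acp5, Plbd1, Gpnmb and Itgax were in 0 of the 15, which allows a share of up to 20%. They were in 10.6%, 7.54%, 6.03%, 3.52%, 2.51% and 2.51% of the retained cells, all under that limit.

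**Figure D3:**
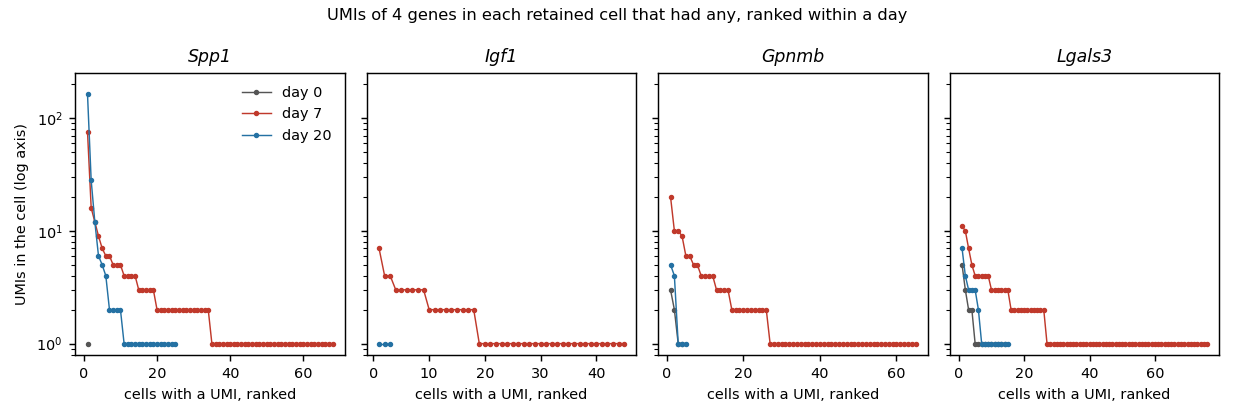
For 4 genes, the UMIs in each retained cell with any (log axis) are plotted against the cell's rank within its day. The first Spp1 point of day 20, at 162 UMIs, stands far above the rest, while the Igf1, Gpnmb and Lgals3 curves of day 7 start at 7, 20 and 11 UMIs.

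Cells that had several of the 9 genes at once were mainly found at day 7. To set aside depth, each cell was thinned to 578 UMIs, which 555 of the 740 cells reached (192, 227 and 136 at days 0, 7 and 20). At least 1 gene of the 9 was then found in 9.72% ± 6.95 (SD, n = 3) of dark-kept cells, 51.3% ± 5.53 after 7 days of light, and 27.1% ± 2.61 after 20 days. At least 2 were found in 0.498% ± 0.862, 15.5% ± 6.19 and 7.38% ± 2.75. With all UMIs the last shares were 1.30%, 40.0% and 11.5%, and the 3 days did not overlap, whereas after thinning the lowest day 7 library (9.09%) was below the highest of day 20 (9.52%). Cells with 4 or more of the genes made up 9.05% ± 2.76 (SD, n = 3) of the unthinned day 7 cells and were not seen in the other libraries, and 2 cells had 6. Depth moved with the number found: the 17 day 7 cells with 4 of the genes had a median of 2097 UMIs, against 763.5 in the 94 cells with 0.

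**Figure D4:**
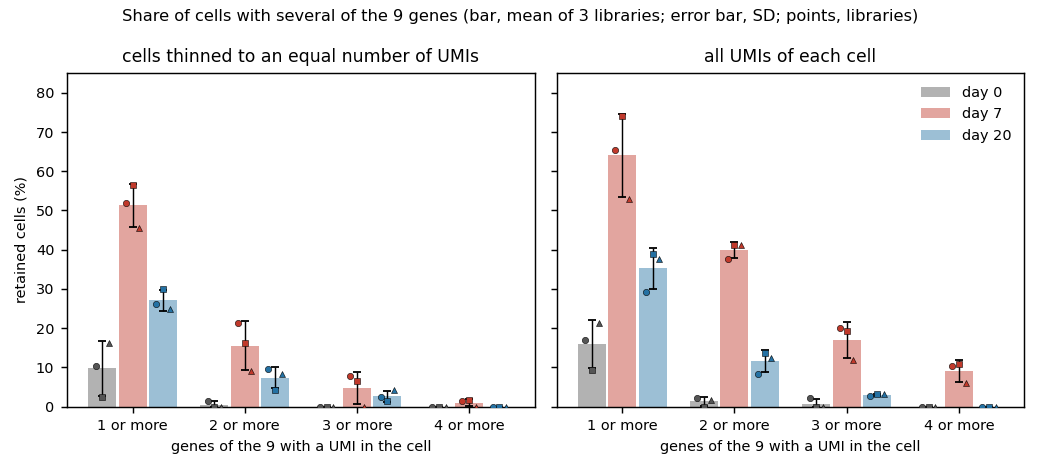
Bars give the mean share of retained cells (%, linear axis) that had at least 1, 2, 3 or 4 of the 9 genes, after thinning to 578 UMIs (left) and with all UMIs (right); points are libraries and error bars the SD of 3, cut at 0. The day 7 bars are the highest for 1 and 2 genes in both panels, and the bar for 4 or more is above 0 at day 7 only.

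At day 7, Igf1 and Gpnmb were often detected in the same cells. Of the 45 cells with Igf1, 25 (55.6%) also had Gpnmb, against 40 of 239 cells without Igf1 (16.7%). Lgals3 was in 23 (51.1%) and 53 (22.2%) of these, Spp1 in 18 (40.0%) and 50 (20.9%), and Cst7 in 8 (17.8%) and 20 (8.37%). Acp5 went the other way, in 3 (6.67%) and 30 (12.6%). So did Plbd1, in 3 (6.67%) and 33 (13.8%), and Itgax, in 1 (2.22%) and 8 (3.35%). The cells with Igf1 were deeper, with a median of 1332 UMIs against 1002. Gm1673 and Igf1 shared 17 of the 38 cells with Gm1673 (44.7%), against 28 of 246 without (11.4%). The 36 cells with Plbd1, with a median of 1679.5 UMIs against 987.5 in the rest, had no common direction. Acp5 was in 22.2% of them against 10.1% of the rest, Itgax in 13.9% against 1.61% and Spp1 in 30.6% against 23.0%. Igf1 was in 8.33% against 16.9%, Gm1673 in 5.56% against 14.5% and Gpnmb in 16.7% against 23.8%. These shares are descriptions within pooled libraries, with no test.

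The retained cells were next divided by the MHC class II genes H2-Aa, H2-Ab1 and H2-Eb1, which present antigen and are low in resting microglia. Cells with at least 2 UMIs of the 3 genes were called positive and cells with 0 negative, which gave 156 and 60 cells at day 7, and 62 and 100 at day 20. Day 0 had 12 positive cells and was left out. All 57 day 7 UMIs of Plbd1 were in positive cells (203, 164 and 259 CPM in replicates 1, 2 and 3), and the 60 negative cells had 0 UMIs in all 3 libraries. With 46629 UMIs in those cells, 0 allows a level of up to 64.3 CPM, below the 198 CPM of the positive cells. Itgax also had 0 UMIs in the negative cells, but its 8 UMIs in positive cells (27.8 CPM) were under that limit, and at day 20 it had 3 UMIs in each class. For Plbd1 at day 20 the positive cells had 106, 44.6 and 0 CPM and the negative cells 0 in each library.

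In the planned test, which kept 260 genes and called 2.31% of them higher, none of the 9 genes passed the filter on low counts. Plbd1 was called in both fits that could test it, with no filter (edgeR adjusted p = 0.0269, with 0.278% of genes called higher) and with genes of at least 10 UMIs (edgeR adjusted p = 0.0113, with 1.24% called higher), the latter chosen after the data had been seen. Both fits used the same Plbd1 UMIs, all of which were in positive cells. Plbd1 could enter them only through the class in which it was high, so the number of fits is no evidence on its own. The level was higher in the positive cells of 5 of the 6 libraries and 0 in both classes of day 20 replicate 3. Positive cells were deeper, with medians of 1347.5 and 653 UMIs at day 7 and 998.5 and 604.5 at day 20; CPM takes depth into account but detection in a single cell does not.

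Other genes leaned the other way without passing a test, and their values here are from the same fit of genes with at least 10 UMIs, chosen after the data had been seen. Gm1673 was higher in the negative cells of all 3 day 7 libraries, at 304, 662 and 371 CPM against 66.2, 147 and 130 CPM, but over both days the log2 difference of −1.52 ± 0.69 (SE) had an edgeR adjusted p of 0.432 (0.944 with no filter). In replicate 3 this rested on 1 UMI in 5 negative cells, against 2 UMIs in 8 positive cells. Cst7 at day 20 was at 160, 448 and 134 CPM in negative and 0, 11.2 and 79.7 CPM in positive cells, a pooled 311 against 13.4 CPM (log2 difference over both days −1.87 ± 0.69, SE, edgeR adjusted p = 0.224, and 0.700 with no filter). The replicate 3 values of Cst7 were 2 UMIs in negative and 1 UMI in positive cells. Igf1 had no common direction at day 7, with 506, 82.7 and 743 CPM in negative and 142, 294 and 64.8 CPM in positive cells (edgeR adjusted p = 0.948, and 0.958 with no filter). The 743 CPM was 2 UMIs in 1 of 5 cells. Acp5 had 129 CPM in negative and 153 CPM in positive cells at day 7, but the former was 6 UMIs in 2 of 60 cells (3.33%) and the latter 44 UMIs in 25 of 156 (16.0%). At day 20 its 6 UMIs in negative cells were all in 1 of 100 cells, against 10 of 62 positive cells (16.1%), and the difference in level over both days did not pass (edgeR adjusted p = 0.875). Spp1 at day 20 had 205 UMIs in negative cells against 12 in positive cells. Of the 205, 162 were in the 1 cell above and 28 in 1 cell of replicate 2. Spp1 was detected in 11 of 100 negative cells (11%) and 7 of 62 positive cells (11.3%). At day 7 its pooled level was 407 CPM in negative and 659 CPM in positive cells. Of the 190 UMIs in those positive cells, 75 were in 1 cell of replicate 1, so the difference in level leaned on that cell.

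**Figure D5:**
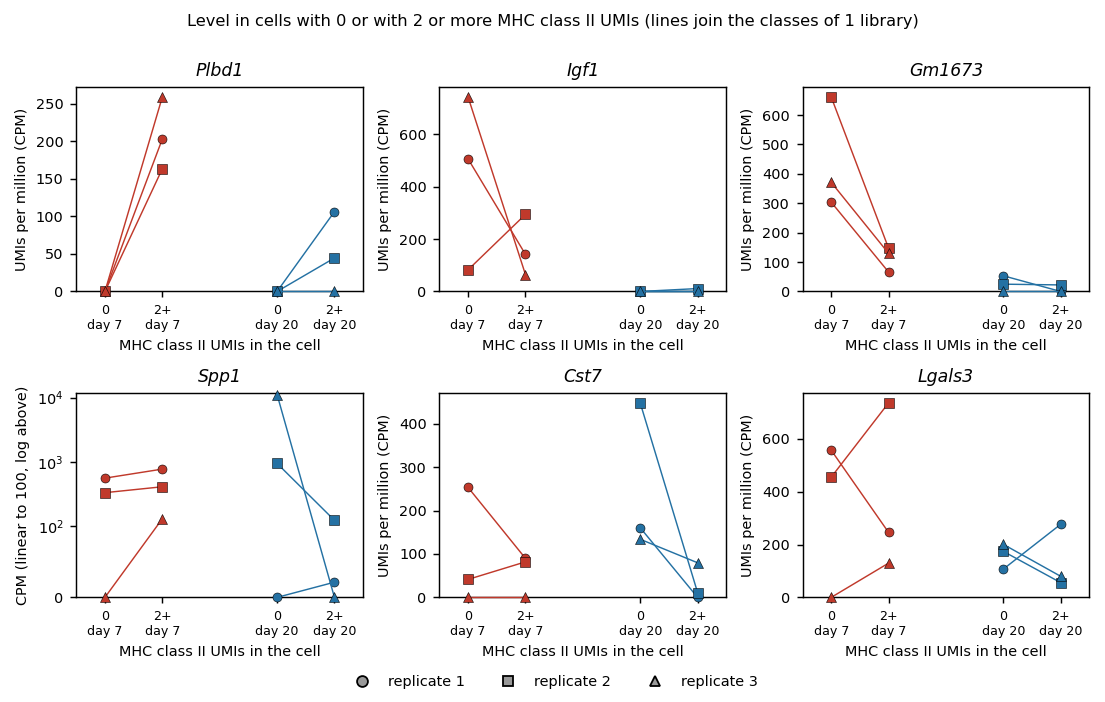
For 6 genes, the level (CPM; linear axes except Spp1, which is linear to 100 and logarithmic above) is plotted in cells with 0 and with 2 or more MHC class II UMIs, with a line joining the classes of each library. Plbd1 is at 0 in the negative cells of all 6 libraries, and Gm1673 falls from negative to positive cells in all 3 libraries of day 7, in replicate 3 from a level of 1 UMI.

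Other gene lists were compared in the same fit. Among all 1372 genes, 10.3% were called higher and 15.5% lower at day 7 against day 0. At day 20 the shares were 1.09% and 1.46% against day 0, and 3.94% and 0.875% against day 7. Of 35 other genes of the disease-associated state, 26 were tested at day 7 against day 0, 11 were higher and 2 lower, with a median log2 change of 0.40 against −0.06 over all 1372 genes. The largest were the lipid carriers Apoc1 (7.51 ± 0.63, SE) and Apoe (4.13 ± 0.54), the fatty acid binding protein Fabp5 (4.33 ± 0.74) and lysozyme, Lyz2 (2.69 ± 0.32). Ccl6 and Ctsl were the 2 that fell. At day 20 against day 0, 4 of the 26 were higher, Apoc1, Apoe, Cd63 and Lyz2, and against day 7 Apoc1 and Lyz2 were the 2 that were lower. Of 16 genes of resting microglia, 14 were tested, and 13 were lower at day 7 than at day 0, led by Siglech (−3.02 ± 0.43), P2ry13 (−2.84 ± 0.57), Tmem119 (−2.77 ± 0.39) and P2ry12 (−2.66 ± 0.34). Fcrls, a microglial Fc receptor-like gene, was the exception at 2.56 ± 0.39. From day 7 to day 20, 9 of the 14 rose, with Siglech up by 2.38 ± 0.45, while Igf1 and Gm1673 went down.

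Genes for receptors, binding proteins and cathepsins that meet these ligands and inhibitors ranged widely in level in the sorted cells. Over all retained cells the proteases Ctss, Lgmn and Ctsl had 9360, 2295 and 1001 UMIs, while Igfbp3 had 0 and Igfbp5 had 2. Of 25 such genes, 11 were tested and 6 changed at day 7 against day 0, 1 higher and 5 lower. Of all genes tested, 10.3% were called higher and 15.5% lower. Lgals3bp, which binds galectin-3, was higher (log2 change 1.33 ± 0.38, SE, edgeR adjusted p = 0.0174). Icam1 (−3.58 ± 0.68), the integrin chains Itgb5 (−1.22 ± 0.32) and Itgb2 (−1.18 ± 0.33), and the proteases Lgmn and Ctsl were lower, and Icam1 alone rose again from day 7 to day 20 (3.17 ± 0.70). Igf1r, the receptor of Igf1, had 4 UMIs in all retained cells and the osteopontin receptor Cd44 had 23, too few for a comparison. Ctsc, cathepsin C, a protease that cystatin F is known to restrain, was higher in the MHC class II positive cells (2.06 ± 0.40, edgeR adjusted p = 0.00976) and was not called between days.

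Over the 9 libraries, the genes whose log2 level was most like the sum of the 9 were Apoe (Pearson's r = 0.940), Dynlrb1 (0.922), Cd63 (0.922), Fcrls (0.917) and Lyz2 (0.914), out of 1365 genes compared. The single closest genes were Fcrls for Spp1 (0.957), Bst2 for Igf1 (0.940), Naca for Acp5 (0.958), Sec61g for Gm1673 (0.945), Slirp for Plbd1 (0.964), 1110008F13Rik for Lgals3 (0.955) and Ndufs6 for Cst7 (0.983). These are descriptions of libraries that fall into 3 days and differ in depth, with no test.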

How the data were processed

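Retinal CD45+ CD11b+ cells were sequenced with 10x 3' chemistry, 3 libraries per day. The deposited matrices hold UMI counts per gene and barcode, not normalised; per the labels' processing notes the authors used Cell Ranger with mm10, version not given in the sources used here. The treatment labels set the groups. Each barcode was kept in the library with its highest total, with at least 200 genes and under 10% mitochondrial UMIs; the marker cut followed. Doublets were not called, and 41 retained cells had over 5000 UMIs. UMIs were summed per library and tested with edgeR 4.0.16 (filterByExpr, TMM, robust quasi-likelihood; adjusted p threshold 0.05), all days in 1 fit, in R 4.3.3; DESeq2 1.42.0 was an alternative. The MHC class II fit compared both classes within the 6 light libraries. On simulated data for day 7 against day 0 (1372 genes), 86% of 200 genes with a log2 change of 2 were recovered, with 3.37% false calls. The simulated counts had the same spread for every gene and no outlying cells or batch, so these rates need not hold for the real data. Counting intervals are exact, at 95%, and with the floor of 3 counts cover counting error only. The genes and lists were chosen with earlier results of these data known. Every gene of the 9 was named; of other lists, up to 4 called genes with the largest change, plus Fcrls, Ccl6, Ctsl and Lgmn, chosen after their values were seen. Clec7a was not analysed here.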

Additional observations from a re-analysis of the deposited data

Results flagged for a closer look

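Barcodes that were kept in 1 library but failed the filters on genes, mitochondrial share or markers (625, with a median of 286 UMIs) were outside the comparisons of retained cells, although the looser cell filters of the alternatives took some of them in. There, 5 of the 9 genes had levels, in all 3 libraries of a day, above the highest dark library. The share of all genes that did so is not given here, so that number is no evidence on its own. Spp1 averaged 389 CPM at day 7 (232 to 563) and 196 CPM at day 20 (66.2 to 289.7), against 0 in every day 0 library. Igf1 averaged 66.2 CPM at day 7 (37.5 to 115) against 0, from 4, 1 and 1 UMIs in replicates 1, 2 and 3. At day 20 it had 5, 0 and 1 UMIs there (110, 0 and 48.3 CPM), so the lower Igf1 level of the retained cells at day 20 than at day 7 was not seen in these barcodes. Plbd1 averaged 53.0 CPM at day 7 (28.7 to 92.9) against 0, from 1, 2 and 1 UMIs. Gm1673 averaged 72.2 CPM at day 7 and 80.2 CPM at day 20, and Lgals3 155 CPM at day 7, each against at most 23.6 CPM at day 0, from 1 to 3 UMIs of Gm1673 and 1 to 10 of Lgals3 per library on those days. These barcodes held between 0 and 15 Spp1 UMIs per library.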

How the results depend on the processing

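For the counts of called genes and shares of cells, 119 of the recomputed values stayed within their limits, 21 gained, 22 lost and 3 moved, and for single genes 364 kept direction and call, 14 gained and 9 lost a call. Keeping every barcode entry gave 68 genes called at day 7 against day 0 in place of 353, 2 at day 20 against day 0 in place of 35, and 0 at day 20 against day 7 in place of 66 (edgeR, with 164 at an unadjusted p under 0.05), 0 of the 9 genes in both day 20 comparisons (2 and 4 at an unadjusted p under 0.05), 91 genes in the MHC class II comparison in place of 6, and 4.33% of day 0 cells with at least 2 of the 9 genes. Those fits tested 2686 genes between days and 824 for MHC class II. Without the marker cut, 171 of 2103 genes were called at day 7 against day 0 and 17 at day 20 against day 7. For MHC class II it was 1 of 274. Of the 9 genes, 1 was lower at day 20 than at day 7. Without both thin libraries, 609 of 2368 genes were called at day 7 against day 0. At day 20, 50 were called against day 0 and 142 against day 7, with 3 and 5 of the 9 genes. With no filter on low counts, 38 of 13095 genes were called at day 20 against day 0 and 36 against day 7. For MHC class II it was 32 of 11525. Of the 9 genes, 2 were called at day 20 against day 0 and 1 for MHC class II. From 100 detected genes per cell, 59 and 16 were called at day 20 against day 0 and for MHC class II. DESeq2 called 15 for MHC class II. There the filter of 10 UMIs, added after seeing the data, called 57 of 4593 genes, with 1 of the 9. Without the cell richest in Spp1, also added later, 2 of the 9 genes and 35 of all 1370 were called at day 20 against day 0. Without thinning, 40.0% and 11.5% of cells at days 7 and 20 had at least 2 of the genes. Apart from the filters and libraries as such, the cause was not tested.

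Leaving out 1 library gave fits that tested 1521 to 2131 genes between days. At day 7 against day 0, 4 to 7 of the 9 genes and 201 to 519 of all genes were called. At day 20 it was 0 to 2 and 21 to 54 against day 0, and 0 to 4 and 14 to 107 against day 7. For MHC class II, 3 to 20 genes were called, with 237 to 374 tested. The shares of cells with at least 2 of the genes moved from 0 to 0.746%, 12.6 to 18.8% and 6.31 to 8.93% at days 0, 7 and 20. The log2 change of Cst7 at day 7 against day 0 ranged from −0.26 without day 0 replicate 2 to 0.84 and was −0.19 without day 7 replicate 1, and at day 20 against day 7 was −0.12 with every barcode entry. That of Spp1 at day 20 against day 7 turned to −1.39 without both thin libraries, where it was called lower (edgeR adjusted p = 0.0160). It was −0.91 without the cell richest in Spp1, which did not pass. Over the fits without 1 library, 0 of which called it, it ranged from −1.14 without day 20 replicate 3 to 2.03.

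With a replicate block the calls were 345, 41 and 61 of 1372 genes in the 3 comparisons and 5, 1 and 2 of the 9 genes. Deviations from the day means correlated between −0.056 and 0.092 over 2347 genes in the 9 same-numbered pairs. In the 18 other pairs they correlated between −0.083 and 0.075. Replicate 3 had the fewest retained cells on each day (56, 17 and 32 at days 0, 7 and 20). Whether libraries of the same number shared a batch was not tested. Depth limits what Itgax, with 6 to 10 UMIs per day, and the 2 thin libraries can show.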
